A study of Mus musculus with 6 samples.

Results

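Mitochondrial ribosomal protein genes were examined in LT-HSC, the long-term haematopoietic stem cells of the mouse, which renew the blood for life, 2 days after sex steroid ablation (SSA). They were taken as the rows of the raw signal table whose gene name begins with MRPL or MRPS followed by a number, which gave 73 of 30774 rows, 45 named for the large subunit and 28 for the small. The 2 groups were SSA, with 3 arrays, and sham, labelled shSSA, with 3 arrays. All samples are labelled as LT-HSC from bone marrow (BM) of male mice, strain C56 Bl/6, aged 2 months. The way in which sex steroids were removed and the sort of the cells are not given in the sources used here. Biotin-labelled RNA was read on Illumina mouse bead arrays, on which many beads carry the same probe. Whether the samples are separate animals is not labelled, and the p-values rest on the spread of these samples alone, which may be technical. The column headers number the SSA arrays 4, 5 and 6 and the sham arrays 7, 8 and 12, so a batch that follows this order and SSA cannot be told apart.

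The mitochondrial ribosome makes the few proteins that mitochondrial DNA encodes, which are core subunits of the oxidative phosphorylation complexes. Its RNAs come from mitochondrial DNA, whereas all of its proteins are encoded in the nucleus, made in the cytoplasm and imported. Some of these proteins descend from bacterial ribosomal proteins and others exist only in mitochondrial ribosomes. Quiescent haematopoietic stem cells are known for drawing much of their energy from glycolysis.

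Promoters of genes for mitochondrial ribosomal proteins often carry sites for nuclear respiratory factor 1 (NRF1), for ETS factors such as GABP, and for YY1. RefSeq (GRCm38.p6) gave 70 promoter sequences, 250 bases before to 50 bases after a gene start, for 64 of the 73 genes. The 3 sequences that follow belong to the genes whose SSA and sham arrays did not overlap, and capitals mark a letter match to the NRF1 motif, GCGCA and GCGC with any 1 base between them, or to the ETS motif CCGGAAG, on either strand. Mrpl17 (chr7:105811038-105811337, minus strand) held an NRF1 match that starts 49 bases before the gene start and an ETS match 237 bases before it. Mrpl52 (chr14:54426659-54426958, plus strand) held an ETS match that starts 47 bases before the gene start and another at base 3 after it. Mrpl9 (chr3:94443086-94443385, plus strand) held an NRF1 match that starts 28 bases before the gene start.
Mrpl17: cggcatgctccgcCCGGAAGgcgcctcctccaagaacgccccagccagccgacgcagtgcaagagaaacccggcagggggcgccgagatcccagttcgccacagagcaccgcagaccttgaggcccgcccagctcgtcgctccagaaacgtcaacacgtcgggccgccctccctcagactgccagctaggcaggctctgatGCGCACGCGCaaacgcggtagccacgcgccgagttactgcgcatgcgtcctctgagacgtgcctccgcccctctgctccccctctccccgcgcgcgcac
Mrpl52: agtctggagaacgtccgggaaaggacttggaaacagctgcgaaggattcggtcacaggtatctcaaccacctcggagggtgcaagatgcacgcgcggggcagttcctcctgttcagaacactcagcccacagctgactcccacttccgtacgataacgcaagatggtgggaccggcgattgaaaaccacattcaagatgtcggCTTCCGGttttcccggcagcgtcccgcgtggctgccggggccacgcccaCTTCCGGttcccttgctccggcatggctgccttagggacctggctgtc
Mrpl9: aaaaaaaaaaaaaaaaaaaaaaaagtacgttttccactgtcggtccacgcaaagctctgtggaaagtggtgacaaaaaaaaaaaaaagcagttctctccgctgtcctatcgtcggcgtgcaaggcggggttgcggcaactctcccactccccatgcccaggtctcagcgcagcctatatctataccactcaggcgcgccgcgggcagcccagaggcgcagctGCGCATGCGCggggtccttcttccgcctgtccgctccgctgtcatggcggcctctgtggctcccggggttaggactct

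Across the 70 promoters of the mitochondrial ribosomal protein genes, the NRF1 motif was present in 17.14%, against 4.603% of all 32851 mouse promoters of the same length. The ETS motif was present in 34.29%, against 8.858% of all promoters. The YY1 motif, searched as AAGATGGC, was present in 15.71%, against 2.749%. At least 1 of the 3 motifs was found in 57.14% of these promoters and in 14.69% of all promoters. These are letter matches in a fixed window and not measured binding sites. Some genes have more than 1 sequence, and the promoters of neighbouring genes can overlap.

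Between 35.8% and 37.7% of the rows were detected on each array, where detected means a deposited detection score over 0.95, and correlations between arrays lay between 0.955 and 0.988. The raw 75th percentile ran from 192.0 to 246.7. Sham 2 stood apart from the other arrays over all genes: on the first principal component, with 45.8% of the variance, it lay at 41.6, and the other 5 arrays lay between -24.1 and 9.7. It was the highest array in 26.6% of all genes and the lowest in 26.8%. Of 14 genes listed as HSC markers 12 passed the detection filter, Procr did not, and neither did Flt3, which is known to mark later multipotent progenitors. The median deviation of the HSC list from its 6-array means was 0.20, 0.094 and 0.047 in SSA against 0.13, -0.37 and -0.067 in sham, lowest on sham 2. The T cell genes Cd3d, Cd3e, Cd3g, Cd4 and Cd8a, the B cell genes Ebf1, Pax5 and Ms4a1 and the macrophage genes C1qa, C1qb, C1qc, Csf1r and Adgre1 did not pass it. Other members of these lists did pass: Nkg7 (log2 fold change -0.51 ± 0.18, SSA below sham without overlap, limma adjusted p = 0.563) and Klrb1c of the T and NK list, Cd79b, Vpreb1 and Igll1 of the B cell list, and Cd68 of the macrophage list, the last 5 with overlapping groups. Of 6 eosinophil and basophil markers 5 had a lower mean in SSA (median log2 fold change -1.40), 4 of them without overlap. Of 4 myeloid progenitor markers 3 had a lower mean in SSA (median -0.66), all 3 without overlap. Among all genes 6.09% had SSA below sham without overlap. All 7 neutrophil markers that passed had a lower mean in SSA (median -1.08), but each overlapped between the groups, and their median deviations were -2.18, -0.10 and 0.89 in SSA against 2.02, 1.35 and -1.71 in sham. The summed raw signal above background of the neutrophil list was 357.7 to 3866 on the SSA arrays, against 1513 to 9376 on the sham arrays. For the eosinophil and basophil list it was 1003 to 1696 against 2903 to 5325, without overlap. The myeloid progenitor (10858.5 to 12739 against 13922 to 18572) and T and NK sums (1800 to 2122 against 2221 to 4075) did not overlap either. The sums of the HSC, B cell, macrophage, red cell and megakaryocyte lists overlapped. The part of such cells in the results below was not tested. In bulk RNA, fewer cells of a type and less RNA per cell cannot be told apart.

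Most mitochondrial ribosomal protein genes were expressed at a detectable level in LT-HSC of both groups. Of the 73 genes, 59 were detected on all 6 arrays. The filter used for all genes, detection on at least 3 of the 6 arrays, left 65 of them, 39 of the large and 26 of the small subunit. The 8 that did not pass were Mrpl1, Mrpl19, Mrpl20, Mrpl21, Mrpl32, Mrpl45, Mrps14 and Mrps22. Mrpl45, which binds the inner membrane near the exit of the peptide tunnel, had raw signals of 132.1, 146.4 and 137.6 on the SSA arrays against 140.4, 133.1 and 138.0 on the sham arrays, where the background mean lay between 126.1 and 137.6. These values overlapped fully and sat close to background.

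Mrpl1, Mrpl20 and Mrps22 failed the detection score although their raw signals stood well above background on every array. Mrps22, a mitochondrion-specific protein of the small subunit, gave 351.1, 439.8 and 389.1 raw units in SSA against 388.9, 436.4 and 471.6 in sham. With a filter on the signal instead of the score, its log2 fold change was -0.097 ± 0.19 (standard error, SE) and its adjusted p 0.892. The fold changes of Mrpl1 and Mrpl20 were -0.049 ± 0.14 and 0.035 ± 0.16. Mrpl41, Mrpl42 and Mrps36 are not analysed here.

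SSA was compared with sham by limma over 10821 genes, two-sided, with Benjamini-Hochberg adjustment. No mitochondrial ribosomal protein gene passed an adjusted p of 0.05. In this comparison 0.00924% of all genes passed, a single gene, Ear6, an eosinophil ribonuclease. It averaged 5.34 in SSA and 7.44 in sham on the log2 scale (log2 fold change -2.11 ± 0.18, adjusted p = 0.0303), and it was named because it was the only call. No gene was called with neqc, the standard background fit for these arrays, with no background correction, with no filter, or without SSA 1, SSA 2, sham 2 or sham 3. The smallest adjusted p among the 65 genes was 0.563.

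The measured differences of the mitochondrial ribosomal protein genes were small. The absolute log2 fold change had a median of 0.10 over the 65 genes, against 0.17 over all genes tested. It was below 0.1 in 31 genes and below 0.25 in 57, and it reached 0.3 in 5. In 49 of the 65 genes it was smaller than its own SE, which ranged from 0.13 to 0.29. All 65 unadjusted 95% intervals lay within 1 log2 unit of 0, and that of Mrpl52 alone excluded 0. With 3 arrays a group, differences inside these intervals remained compatible with the data. A p above the threshold does not show that the groups were equal.

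One gene, Mrpl52, had an unadjusted p under 0.05, where 8.48% of all genes did, 4.75% on the higher and 3.73% on the lower side. This count depends on the setting. It was 11 with array weights, 3 with neqc, with no background correction or with no filter, and 0 with a median shift. Leaving out 1 array gave 4 without sham 1 and 3 without sham 2. It gave 1 without SSA 1 and 0 without SSA 2, SSA 3 or sham 3. The SSA and sham arrays did not overlap in 3 of the 65 genes, with SSA above in Mrpl52 and Mrpl17 and below in Mrpl9. Among all genes 14.6% did not overlap, 8.47% with SSA above and 6.09% with SSA below. The share without overlap was smaller among the mitochondrial ribosomal protein genes than among all genes, a description with no test.

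Mrpl52 encodes a mitochondrion-specific protein of the large subunit. Its log2 signals were 10.67, 10.94 and 11.15 on the SSA arrays against 10.38, 10.53 and 10.39 on the sham arrays. Every SSA array was above every sham array, and the SSA arrays were the more scattered. Means were 10.92 ± 0.24 in SSA and 10.43 ± 0.084 in sham (SD, n = 3 each), which gives a log2 fold change of 0.49 ± 0.17 (95% interval 0.10 to 0.87, limma adjusted p = 0.563).

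Mrpl17 encodes a large subunit protein of bacterial descent. Its log2 signals were 11.27, 11.18 and 11.18 in SSA against 11.04, 10.90 and 10.96 in sham. The groups did not overlap and were each tight, and the log2 fold change was 0.24 ± 0.13 (limma adjusted p = 0.604). Mrpl9, another large subunit protein of bacterial descent, had log2 signals of 9.31, 9.34 and 9.46 in SSA against 9.53, 9.64 and 9.70 in sham. All SSA arrays were below all sham arrays, with a log2 fold change of -0.26 ± 0.14 (limma adjusted p = 0.602). With arrays weighted by their quality, Mrpl52 (0.44, adjusted p = 0.0429) and Mrpl9 (-0.35, adjusted p = 0.0449) passed the threshold, as did 1445 of all genes; over the 20 other settings the adjusted p of Mrpl52 ranged from 0.0429 to 1.00 and that of Mrpl9 from 0.0449 to 1.00.

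**Figure D1:**
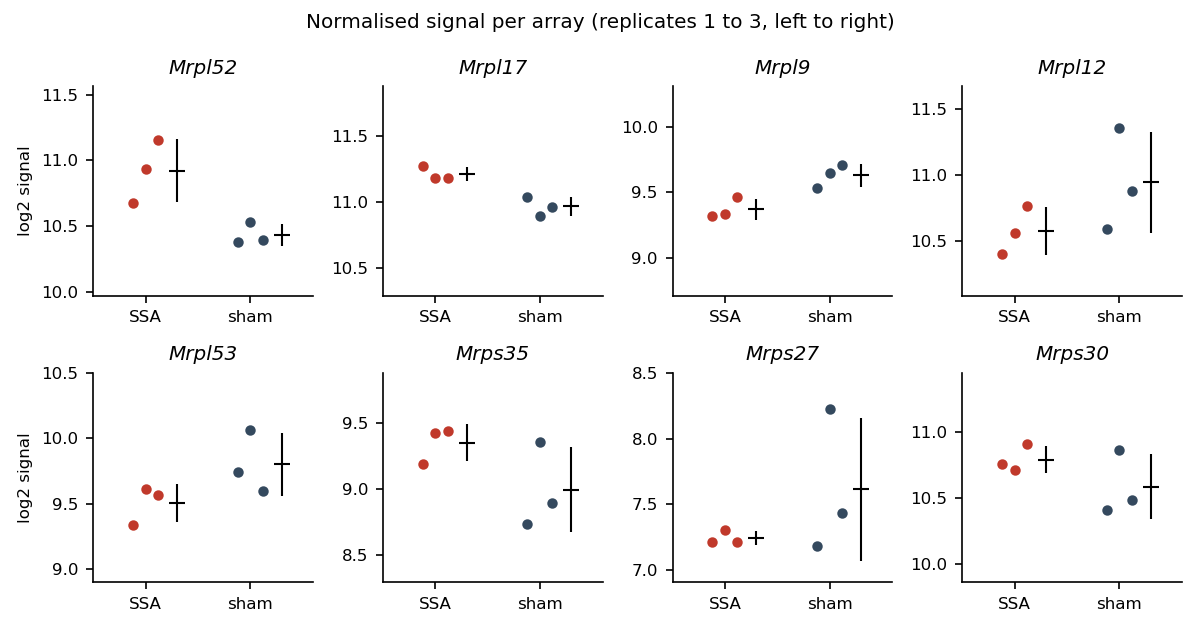
Normalised log2 signal of 8 mitochondrial ribosomal protein genes on each array, SSA in red and sham in dark blue, with the mean and SD of 3 arrays as a black bar beside the points. All panels span 1.6 log2 units; SSA and sham do not overlap in Mrpl52, Mrpl17 and Mrpl9, and sham 2 is the highest array in Mrpl12, Mrpl53 and Mrps27.

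Proteins of the stalk, the flexible arm of the large subunit that recruits translation factors, were next. Mrpl12, the stalk protein that is also known to bind the mitochondrial RNA polymerase, had log2 signals of 10.40, 10.56 and 10.77 in SSA against 10.59, 11.36 and 10.88 in sham. The groups overlapped, and sham 2 stood above the other arrays. The log2 fold change was -0.37 ± 0.22 with all arrays, -0.16 without sham 2 and -0.55 without sham 1. Mrpl10, which anchors the stalk, differed by -0.063 ± 0.13, and Mrpl11, at the stalk base, by 0.12 ± 0.17. Mrpl53, a mitochondrion-specific protein, had log2 signals of 9.34, 9.61 and 9.57 in SSA against 9.74, 10.06 and 9.60 in sham. The 2 groups met at the lowest sham array, and the difference was -0.30 ± 0.17, or -0.17 without sham 2.

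The other large subunit genes named by size of p or by role differed by at most 0.35. Mrpl3, a core protein of bacterial descent, differed by 0.045 ± 0.16, and Mrpl44, whose protein carries a ribonuclease III-like fold, by 0.040 ± 0.14. Mrpl27 (0.23 ± 0.17), Mrpl34 (0.20 ± 0.18) and Mrpl13 (0.14 ± 0.13) were on the higher side, and Mrpl16 (-0.25 ± 0.19) on the lower. Without sham 2 the difference was -0.086 for Mrpl16 and 0.35 for Mrpl34, and without sham 1 it was 0.080 for Mrpl34. Without sham 3 the difference was 0.12 for Mrpl27. Mrpl39, at 0.35 ± 0.27, was dim: its raw signal lay between 125.3 and 159.6, it was detected on 3 arrays, and its difference was 0.021 with neqc, 0.64 with the series matrix values, 0.55 with array weights, 0.67 without sham 1 and 0.19 without sham 2.

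In the small subunit the largest differences were those of Mrps27 and Mrps35. Mrps27, a pentatricopeptide repeat protein, had log2 signals of 7.21, 7.31 and 7.21 in SSA against 7.18, 8.23 and 7.44 in sham. The SSA arrays lay close together, and sham 2 stood apart above all other arrays. The difference was -0.37 ± 0.26 with all arrays, -0.064 without sham 2 and -0.59 without sham 1. Mrps35, a mitochondrion-specific protein, had log2 signals of 9.19, 9.43 and 9.44 in SSA against 8.73, 9.36 and 8.89 in sham. Here sham 2 lay among the SSA arrays and the other sham arrays below them. The difference was 0.36 ± 0.19 (limma adjusted p = 0.602), 0.54 without sham 2 and 0.23 without sham 1.

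Mrps12, Mrps7 and Mrps16, core proteins of bacterial descent, differed by less than their SE. Mrps12, which lies at the decoding site, differed by 0.098 ± 0.17, Mrps7 by 0.076 ± 0.22 and Mrps16 by 0.031 ± 0.16. Mrps25 (-0.21 ± 0.19), Mrps2 (-0.20 ± 0.21) and Mrps24 (0.11 ± 0.14) were further genes of smallest p. Without sham 2 the difference was -0.10 for Mrps25 and -0.081 for Mrps2, and without SSA 1 it was -0.070 for Mrps2. The 3 paralogous genes named MRPS18 encode related proteins that occupy different places. Mrps18c, at the position of the bacterial protein, differed by 0.15 ± 0.15, Mrps18b, elsewhere in the small subunit, by -0.20 ± 0.22 (-0.019 without sham 2), and Mrps18a, which sits in the large subunit despite its name, by 0.079 ± 0.21. Mrps30 also sits in the large subunit: it had log2 signals of 10.76, 10.71 and 10.91 in SSA against 10.40, 10.87 and 10.48 in sham, overlapping at sham 2, and differed by 0.21 ± 0.17, or 0.35 without sham 2 and 0.12 without sham 1.

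**Figure D2:**
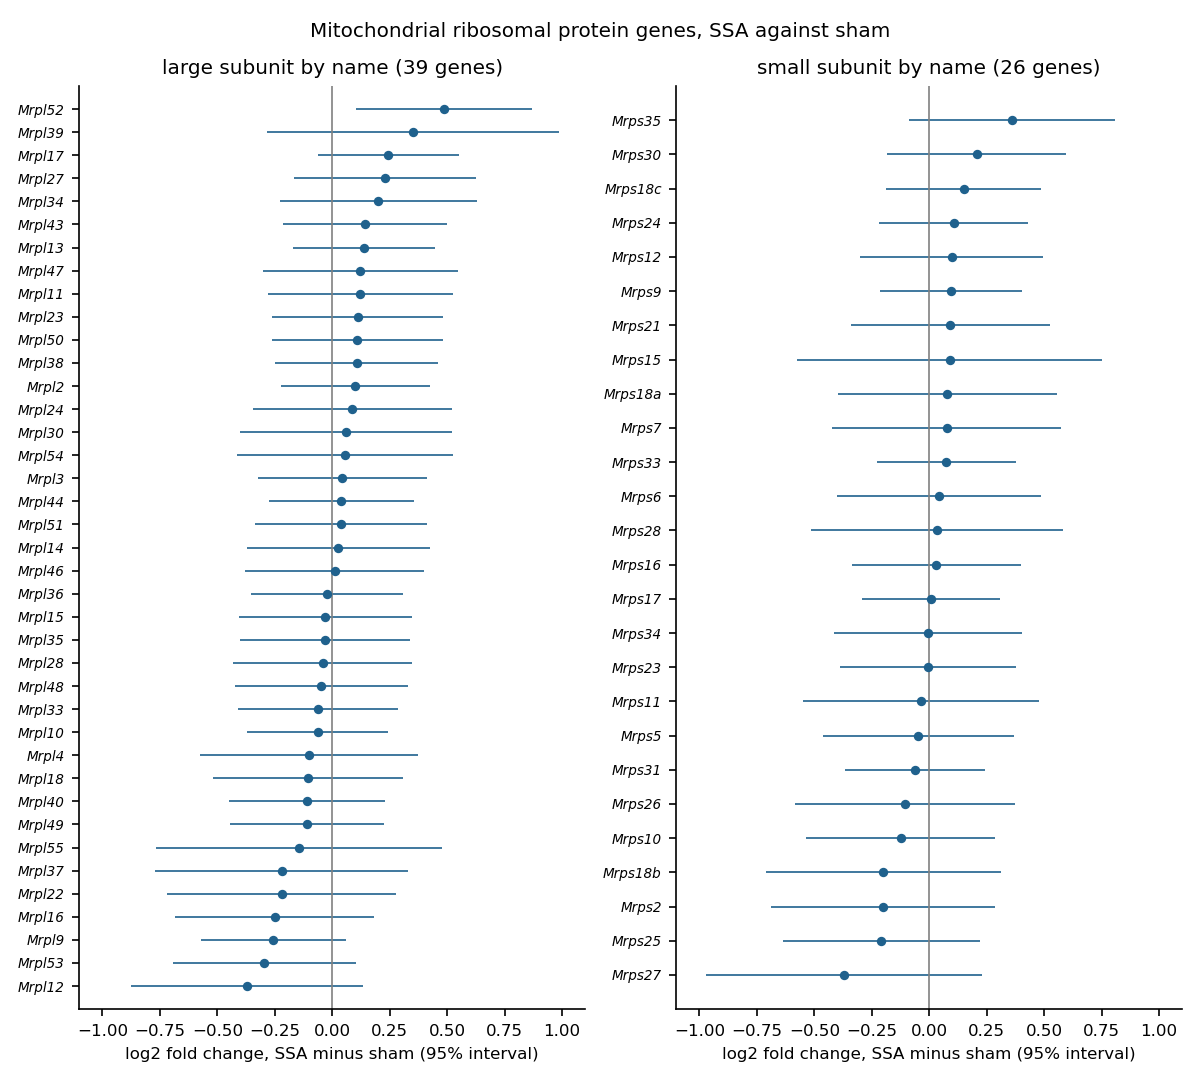
Log2 fold change, SSA minus sham, of the 65 mitochondrial ribosomal protein genes that passed the detection filter, with unadjusted 95% intervals from the limma fit, large subunit left and small subunit right. Differences run from -0.37 to 0.49, all intervals lie within 1 log2 unit of 0, and the interval of Mrpl52 alone excludes 0.

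Large and small subunit genes were then compared. In the large subunit 21 of 39 genes had a higher mean in SSA and 18 a lower one, and the median log2 fold change was 0.027. In the small subunit 15 of 26 were higher and 11 lower, with a median of 0.033. Over all 65 genes 36 were higher (55.4%) and 29 lower, and the median was 0.031, against 51.4% higher and a median of 0.0085 over all genes tested. Placing Mrps18a and Mrps30 by their position changed the medians to 0.038 for the large and 0.019 for the small subunit. Leaving out 1 array changed the sign of both medians: the large subunit's ran from -0.065 without sham 1 to 0.063 without sham 2, and the small subunit's from -0.063 without sham 1 to 0.093 without sham 2. With a median shift in place of quantile normalisation 24 of the 65 were higher and their median was -0.047, with the median of all genes at -0.056.

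The balance between the subunits was read on each array as the median deviation of the large subunit genes minus that of the small, each gene taken relative to its mean over the 6 arrays. It was 0.0064, -0.030 and -0.076 on the SSA arrays against 0.064, -0.11 and -0.0068 on the sham arrays. The groups overlapped. Means were -0.033 ± 0.041 in SSA and -0.019 ± 0.090 in sham (SD, n = 3 each), a difference of -0.014, and with means over genes in place of medians the difference was 0.0020. The difference between groups was smaller than the spread between arrays of either group.

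By descent, 24 of 40 genes with a bacterial homolog were higher in SSA and 16 lower; their median log2 fold change was 0.039. Of the 24 mitochondrion-specific genes 12 were higher and 12 lower, with a median of 0.0029. Within the small subunit, taken by name and so with Mrps18a and Mrps30, 12 of 16 genes with a bacterial homolog were higher (median 0.059). Of the mitochondrion-specific genes there, 3 of 10 were higher (median -0.034). The median deviation of the former ran from -0.19 on sham 1 to 0.32 on sham 2, and that of the latter from -0.15 on sham 1 to 0.21 on SSA 3. Within the large subunit the counts were 12 of 24 (median 0.0022) and 9 of 14 (median 0.039). The order of the medians by descent was opposite in the 2 subunits, none of these genes passed the test, and the difference between descents was not tested.

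The arrays differed more within each group than between the groups. The median deviation of the 65 genes was -0.091, -0.023 and 0.16 on SSA 1, 2 and 3 against -0.12, 0.21 and -0.063 on sham 1, 2 and 3. Sham 2 and SSA 3 were thus high and sham 1 and SSA 1 low, so that each group held a high and a low array. The range was 0.25 within SSA and 0.33 within sham, while the means of these medians were 0.016 ± 0.13 in SSA and 0.0075 ± 0.17 in sham (SD, n = 3 each).

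Many of the genes shared this pattern. On SSA 3, 55 of the 65 genes lay above their own mean (84.6%, against 52.9% of all genes), and on sham 2, 50 did (76.9%, against 49.8%). On SSA 1, 16 did (24.6%, against 51.5%), and on sham 1, 12 did (18.5%, against 47.8%). The highest array was SSA 3 in 21 genes and sham 2 in 32, and the lowest was SSA 1 in 19 and sham 1 in 22. As shares these were 32.3% and 49.2% highest, against 20.6% and 26.6% of all genes, and 29.2% and 33.8% lowest, against 16.1% and 16.1% of all genes. Both subunits took part: the median deviations of the large subunit were -0.086, -0.042 and 0.13 in SSA against -0.12, 0.17 and -0.063 in sham. Those of the small subunit were -0.092, -0.012 and 0.21 in SSA against -0.18, 0.29 and -0.057 in sham. Genes of 1 array share its RNA and hybridisation and are not independent.

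**Figure D3:**
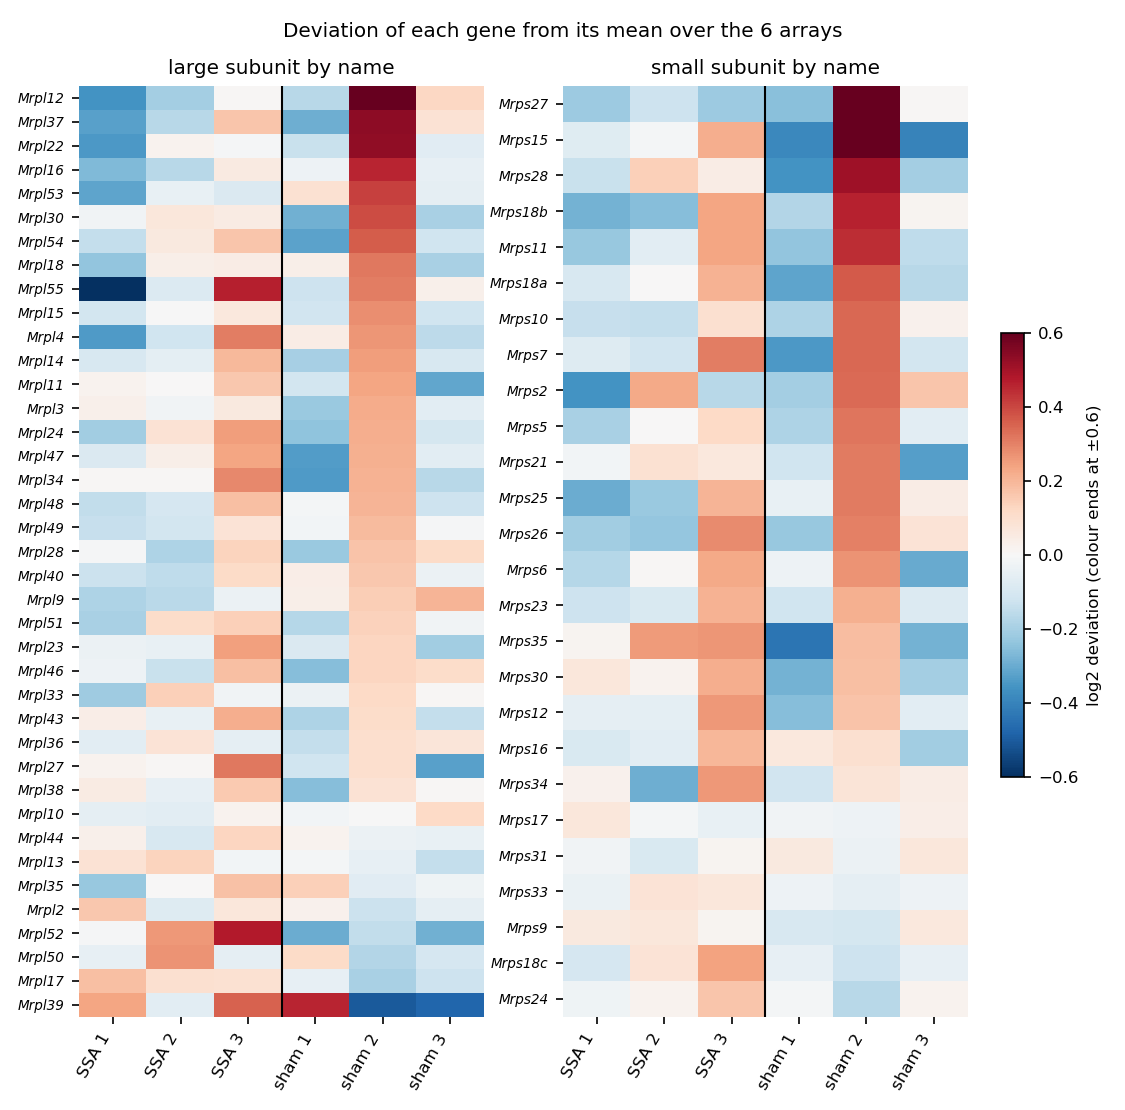
Deviation of each of the 65 genes from its own mean over the 6 arrays, in log2 units, with the large subunit left, the small subunit right, the SSA arrays left of the black line and the sham arrays right of it. Genes are ordered by their value on sham 2, so the order down the page is not a result; SSA 3 and sham 2 are mostly red, and SSA 1 and sham 1 mostly blue.

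The array order was read against all genes under other scalings. With a median shift the medians of all genes themselves moved, to -0.12, 0.13 and -0.074 in SSA against 0.049, -0.21 and 0.25 in sham. Relative to these the mitochondrial ribosomal protein genes stood at -0.13, -0.013 and 0.13 in SSA against -0.14, 0.18 and -0.021 in sham. Relative to all genes, sham 2 was highest, SSA 3 second and sham 1 lowest in all 12 settings of background, scaling, filter and row choice that were compared. The filter and row choice settings reuse the normalised values of the main setting, so they could do little to change this order.

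Other gene groups were set beside them on the same arrays. The 62 oxidative phosphorylation genes, whose complexes hold the products of the mitochondrial ribosome, had median deviations of -0.12, -0.00082 and 0.092 in SSA against -0.093, 0.17 and -0.060 in sham, with the same 2 arrays highest. Of these 28 were higher and 34 lower in SSA (median log2 fold change -0.020). The 54 cytoplasmic ribosomal protein genes had 0.015, 0.0062 and 0.070 in SSA against -0.026, 0.014 and -0.071 in sham, a range of 0.14 against 0.33 for the mitochondrial ribosomal protein genes. Of these 39 were higher (72.2%, against 51.4% of all genes) and 15 lower (median 0.047), and none passed the test. In 11 of the 54 SSA was above sham without overlap and in 0 below, against 8.47% and 6.09% of all genes.

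Red cell markers also differed between the arrays. Their 7 genes that passed the filter had median deviations of -0.92, 0.055 and 0.29 in SSA against -0.35, 0.90 and 0.069 in sham, with sham 2 highest and SSA 3 next. All 7 were lower in SSA (median log2 fold change -0.46), each with overlapping groups. The summed raw signal above background of the red cell list was 5908 to 14492 in SSA against 11764 to 21659 in sham. The 5 megakaryocyte markers had -0.28, -0.10 and 0.21 in SSA against -0.23, 0.70 and -0.35 in sham, with the same 2 arrays highest. Cell cycle genes had -0.17, -0.19 and -0.36 in SSA against 0.039, 0.45 and 0.24 in sham. All 21 of them were lower in SSA (median log2 fold change -0.46), without passing the test, and SSA 3 was their lowest array. Of these 21, 12 had an unadjusted limma p under 0.05, and in 14 SSA lay below sham without overlap. The 15 immediate-early genes, which respond quickly to stress and cell handling, had -1.57, 0.32 and -1.69 in SSA against -0.56, 1.64 and 1.96 in sham, the shift of largest median among the lists. All 15 were lower in SSA (median log2 fold change -1.86), 10 with an unadjusted limma p under 0.05 and none past the adjusted threshold. In 2 of the 15 SSA lay below sham without overlap. Among all genes 3.73% had an unadjusted p under 0.05 on the lower side, and 6.09% had SSA below without overlap. The part of red cells, megakaryocytes, cycling cells or the immediate-early response in the array order of the mitochondrial ribosomal protein genes was not tested.

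**Figure D4:**
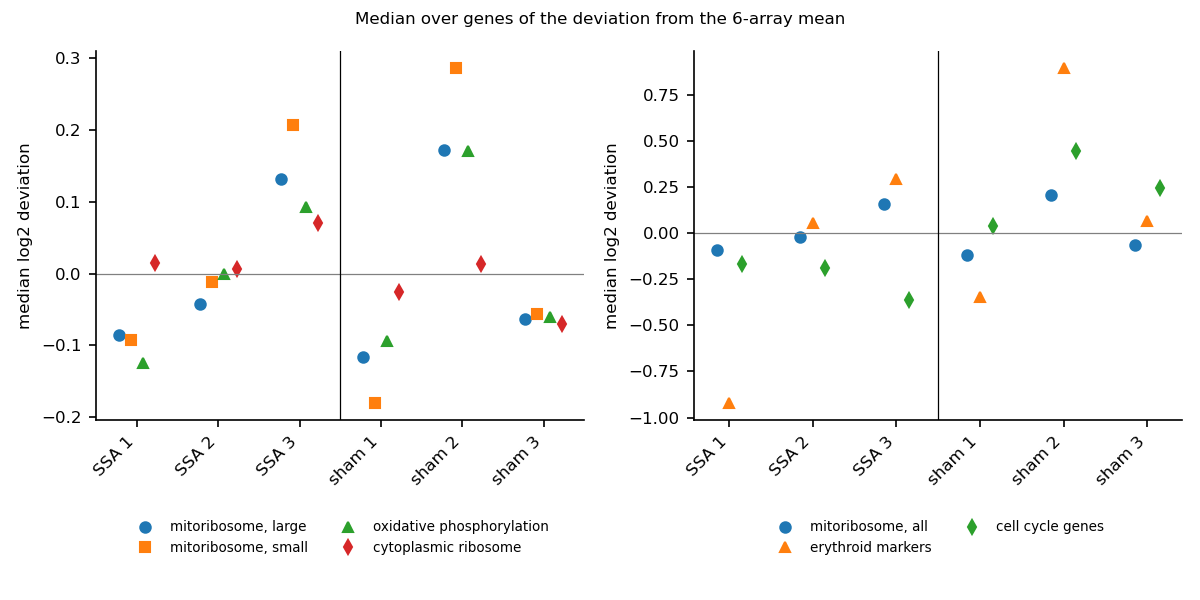
Median over genes of the log2 deviation from the 6-array mean, by array, SSA left of the line and sham right. The left panel holds the large and small mitochondrial ribosomal subunits, oxidative phosphorylation and the cytoplasmic ribosome, and the right panel, on a wider axis, all mitochondrial ribosomal protein genes, red cell markers and cell cycle genes; sham 2 is the highest array for the large and small subunits, oxidative phosphorylation, red cell markers and cell cycle genes.

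The other genes of mitochondrial gene expression were described from lists written for this purpose. Of 12 listed translation factors 9 passed the filter, 5 higher and 4 lower in SSA (median log2 fold change 0.00097), and none passed the test. Mtif2, the initiation factor that places the first tRNA on the small subunit, had log2 signals of 9.51, 9.38 and 9.31 in SSA against 8.99, 8.80 and 8.51 in sham. Every SSA array was above every sham array, and the difference was 0.63 ± 0.17 (limma adjusted p = 0.563). Mtrf1l, a release factor that ends translation at stop codons, had 7.92, 7.79 and 8.06 in SSA against 7.74, 7.53 and 7.28 in sham. Again the groups did not overlap, with a difference of 0.41 ± 0.17.

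Of 23 listed assembly factors 19 passed the filter, 14 higher and 5 lower (median 0.049), and none passed the test. Malsu1, which keeps an unfinished large subunit from joining the small one, had log2 signals from 9.91 to 10.26 in SSA against 9.46 to 9.74 in sham. The groups did not overlap, and the difference was 0.49 ± 0.16 (limma adjusted p = 0.563). Mtg2, a GTPase of large subunit assembly, differed by 0.43 ± 0.20 with overlapping groups. With a median shift the median of the assembly factors was -0.041.

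Of 20 listed mitochondrial tRNA synthetases 18 passed the filter, 8 higher and 10 lower (median -0.043). Fars2, which charges phenylalanine, had log2 signals of 10.72, 10.67 and 10.78 in SSA against 10.43, 10.54 and 10.46 in sham, without overlap (0.25 ± 0.13). Cars2, which charges cysteine, differed by 0.37 ± 0.20. Of 7 ribosomal proteins with other names 6 passed the filter, 3 higher and 3 lower (median 0.0066), among them Mrpl57 at -0.25 ± 0.21 and Aurkaip1 at 0.16 ± 0.14. Of 11 genes of mitochondrial transcription and RNA handling 10 passed the filter, 8 higher and 2 lower (median 0.092). Tfb2m, the initiation factor of the mitochondrial RNA polymerase, had 7.80, 7.81 and 7.63 in SSA against 7.46, 7.05 and 7.49 in sham. These groups did not overlap, with a difference of 0.41 ± 0.17, and Mterf1a, a transcription termination factor, differed by 0.24 ± 0.19. No gene of these lists passed the test. The named genes were picked as those of smallest p in their list, so their non-overlap is not a result. Over whole lists, SSA was above without overlap in 2 of 9 translation factors, 2 of 19 assembly factors and 1 of 18 tRNA synthetases. It was so in 1 of 10 transcription and RNA genes and 0 of 6 proteins with other names, against 8.47% of all genes. SSA was below without overlap in 0 genes of these lists, against 6.09% of all genes.

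**Figure D5:**
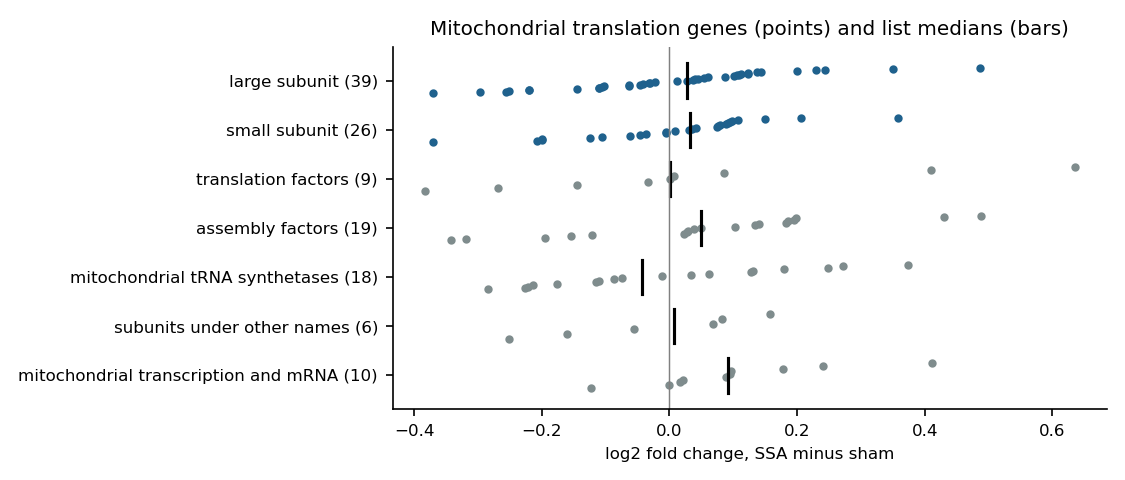
Log2 fold change, SSA minus sham, of each gene of the large and small mitochondrial ribosomal subunits (blue) and of 5 lists of mitochondrial gene expression (grey), with the number of genes in brackets and the list median as a black bar. The medians lie between -0.043 and 0.092, and the highest point is Mtif2 at 0.63.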

How the data were processed

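The deposited raw table holds linear intensity, 1 value per gene name and array, neither background-corrected nor normalized, and its header names GenomeStudio 1.8.0, per the file headers. The deposited detection score is a fraction, used as 1 minus a detection p. Bead counts and bead standard deviations of the intensity were deposited beside it. Background was corrected per array with normexp, its mean and SD read from the detection curve (126.1 to 137.6 and 7.8 to 9.4), since the fit of neqc on these gene-level rows gave a far wider background. An offset of 16 was added, followed by quantile normalization and log2. Rows detected on 3 of 6 arrays were kept. Gene names came from the RefSeq table of GRCm38.p6, and a gene other than those described was represented by its brightest row. Each of Mrps9, Mrpl47 and Mrpl44 has a second row, under another name, that was left out. Groups were compared with limma 3.58.1 (lmFit, eBayes) in R 4.3.3. The fit was also run on simulated data with independent noise and changes larger than any mitochondrial ribosomal protein gene showed. That run does not bear on differences as small as theirs. The members and the lists were chosen with earlier results of these data known. The genes named were the 10 of the large and 8 of the small subunit with the smallest p, a set picked by role, and 2 of smallest p per other list. Fold changes of dim genes are understated by the offset. For arrays, their number limits the precision. Alternatives changed the background, offset, scaling, filter, row choice, array weights, variance model and replicate block, used the deposited series matrix, or left out 1 array.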

Additional observations from a re-analysis of the deposited data

How the results depend on the processing

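Over 20 other settings, no named gene that exceeded its SE changed direction. Of 516 values 15 changed sign, all of genes smaller than their SE, and 2 passed the threshold, those with array weights. The filter, row choice, variance model and replicate block settings left the log2 fold changes of these genes as they were. Their signs could not change there, so only the other settings bear on direction. Many named genes were picked for smallest p in the main fit, so their steady direction is partly selected. No mitochondrial ribosomal protein gene was called except 2 with array weights. Over all genes, where 1 was called, the count was 0 with neqc, 0 with no background correction, 0 with no filter, 3 with a median shift, 4 with the replicate block, 1445 with array weights, and 0 to 4 when 1 array was left out. The cause was not tested. The number of mitochondrial ribosomal protein genes higher in SSA, 36, ranged from 23 (without sham 1) to 47 (without sham 2) when 1 array was left out, and their median log2 fold change from -0.065 to 0.078. The same omissions moved the median of the translation factors between -0.074 and 0.15, of the tRNA synthetases between -0.12 and 0.086, and of the transcription and RNA genes between 0.028 and 0.12. With a median shift the assembly factors had a median of -0.041 and the transcription and RNA genes 0.013; with array weights the median of the transcription and RNA genes was 0.16. The difference between subunits stayed between -0.054 and 0.051 over all settings. Replicate numbers are shared between the groups, and the main fit did not take them as pairs. Deviations of same-numbered arrays correlated at 0.40, -0.0087 and -0.19. With 3 arrays a group these values cannot decide whether the numbers mark pairs. With the replicate block no mitochondrial ribosomal protein gene was called. With 3 arrays a group, differences inside the unadjusted 95% intervals remained compatible with the data. A difference of 2.95 SE (Mrpl52) still missed the adjusted threshold.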
